A study of Mus musculus with 58 samples.

Results

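The matrix metalloproteinases (MMPs), the ADAMTS proteases and their tissue inhibitors (TIMPs) were followed in adipose stem cells (ASC) of mouse inguinal white adipose tissue (iWAT). Members were all genes of the table whose identifier maps to a symbol of the form Mmp, Adamts or Timp with a number, which gave 46 of 56953 genes: 23 Mmp, 19 Adamts and 4 Timp genes. Of these, 30 had at least 5 reads in more than 3 libraries and were tested (14 Mmp, 13 Adamts and 3 Timp genes). Another 14 had reads but failed this filter, and Mmp20 and Mmp21 had none.

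The study sorted CD45-/CD31-/CD34+ cells of C57BL6/J mice into DPP4- cells, called ASC1, and DPP4+ cells, called ASC2, and made bulk Smart-seq3 libraries from them. Gonads were removed at an age of 4 weeks, giving castrated males and ovariectomized females, and these and controls of both sexes were terminated at 10 weeks. Of the 58 libraries, control males gave 7 for ASC1 and 8 for ASC2, ovariectomized females gave 3 and 8, and castrated males and control females gave 8 for each population. Libraries carry letters within each group, and nothing in the labels ties a letter to a mouse, so that p-values measure the spread between libraries. In bulk samples of sorted cells, fewer cells of a type and less RNA per cell cannot be told apart.

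MMPs are zinc proteases that cleave collagens, proteoglycans and other matrix proteins, either after secretion or at the cell surface. ADAMTS proteases are secreted relatives with thrombospondin repeats that process procollagens and large proteoglycans such as versican. TIMPs bind the active site of these proteases, and Timp3 in particular stays attached to the matrix and also inhibits ADAMTS and ADAM enzymes. In adipose tissue, matrix turnover by these enzymes goes along with the growth of the depot and with the differentiation of its stromal cells.

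A run of neighbouring MMP genes on chromosome 9 held members that went in opposite directions in the results below. In the RefSeq annotation of GRCm38.p6 it comprised 10 consecutive protein-coding genes, in the order Mmp13, Mmp12, Mmp1b, Mmp3, Mmp1a, Mmp10, Mmp8, Mmp27, Mmp20 and Mmp7. The 150 bases before the annotated start of 5 of them are shown because Mmp13, Mmp12 and Mmp10 were absent or nearly absent where Mmp3 and Mmp27 were abundant. They are RefSeq sequences of GRCm38.p6, each 5′ to 3′ on the strand of its gene, with matches to TGAGTCA or its reverse complement TGACTCA, the consensus of the Fos and Jun dimer AP-1, in capitals.
Mmp13, chr9:7272364-7272513, plus strand: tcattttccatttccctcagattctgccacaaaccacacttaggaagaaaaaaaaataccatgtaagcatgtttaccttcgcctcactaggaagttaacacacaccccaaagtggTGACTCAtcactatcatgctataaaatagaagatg
Mmp12, chr9:7347224-7347373, plus strand: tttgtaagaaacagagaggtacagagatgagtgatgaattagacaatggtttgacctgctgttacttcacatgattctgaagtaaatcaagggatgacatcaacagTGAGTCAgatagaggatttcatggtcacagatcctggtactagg
Mmp3, chr9:7445672-7445821, plus strand: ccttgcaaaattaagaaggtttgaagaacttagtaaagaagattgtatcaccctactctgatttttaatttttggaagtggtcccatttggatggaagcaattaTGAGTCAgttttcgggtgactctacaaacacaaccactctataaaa
Mmp10, chr9:7502192-7502341, plus strand: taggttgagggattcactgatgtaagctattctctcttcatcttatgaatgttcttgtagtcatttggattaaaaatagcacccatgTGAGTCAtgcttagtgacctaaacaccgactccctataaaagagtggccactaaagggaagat
Mmp27, chr9:7571246-7571395, plus strand: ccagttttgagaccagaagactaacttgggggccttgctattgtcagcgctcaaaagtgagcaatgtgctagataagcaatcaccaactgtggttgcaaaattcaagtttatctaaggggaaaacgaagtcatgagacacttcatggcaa

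The motif was searched on both strands in the 250 bases before each start. It was present before 7 of the 32 members with a promoter entry (21.9%) and before 1395 of all 27025 genes with one (5.16%). The 7 were Mmp13, Mmp12, Mmp1b, Mmp3, Mmp1a, Mmp10 and Mmp7, all of the run on chromosome 9. Its first base lay 35 bases before the start of Mmp13, 44 before that of Mmp12, 46 before that of Mmp3 and 63 before that of Mmp10. Mmp12 has a second annotated start, without a match, and Mmp27 and Mmp8 had no match in the window. Mmp8, whose sequence is not shown, was nearly absent in the same libraries as Mmp13, Mmp12 and Mmp10. A match is a letter string and does not show that a factor binds there.

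Total counts per library lay between 106566 and 1421547, and between 9122 and 15035 genes had a read. DPP4 sorting was visible in the transcripts: the summed level of the ASC2 markers Dpp4, Cd55, Arl4d and Pi16 was 1270 to 5910 CPM (counts scaled to a common library size) in control ASC2 libraries of females and 27.9 to 147 CPM in ASC1. By the share of Xist in the sum of Xist and the Y-linked genes Ddx3y, Eif2s3y, Uty and Kdm5d, 30 of 58 libraries matched the sex on their label. Among castrated males these were 8 of 8 ASC2 and 0 of 8 ASC1 libraries, among ovariectomized females all 3 and 8. Among controls they were 3 of 7 male ASC1, 4 of 8 male ASC2, 2 of 8 female ASC1 and 2 of 8 female ASC2 libraries. Some controls held both kinds of transcript. The Xist share was 46.3 to 70.5% in female ASC2 libraries B, E, G and H. It was 62.8 to 68.9% in male ASC2 libraries E, F and H. In female ASC1 libraries B, C, D, G and H the share was 2.94 to 9.84%. Their Y-linked genes summed to 61.4 to 79.4 CPM and their Xist was 2.41 to 7.2 CPM, mostly male transcripts. The paper reports low counts of Ddx3y and Eif2s3y in female controls and takes them for weak contamination with male mRNA. It adds that Sult1e1 and C7 were low there relative to male controls. The groups below are those of the labels, whether or not the transcripts matched. A further split went across the groups. Tcf21, a transcription factor of visceral fat stroma, reached at least 5 CPM in 23 libraries (8.73 to 78.7 CPM) and at most 1.58 CPM in the other 35. Wt1, which marks visceral stroma and mesothelium, followed it (6.52 to 29.9 CPM against at most 1.82 CPM). Tbx15, typical of subcutaneous fat, was lower in those 23 libraries (median 2.97 CPM, range 0 to 13.7) than in the 35 (median 26.3 CPM, range 8.66 to 73.0), although every library was labelled iWAT. Tcf21 was present in 6 of 8 castrated ASC1, 2 of 8 castrated ASC2, 3 of 7 control male ASC1, 6 of 8 control female ASC1, 2 of 8 control female ASC2 and 4 of 8 ovariectomized ASC2 libraries. It was below 5 CPM in the other 2 groups. Each comparison was repeated on the libraries without Tcf21 and with a term for it, and calls that depend on it are given with their value on the libraries without it.

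The inhibitor Timp1 had the highest level per length of the 30 tested members. This rank depends on the division by its exon length of 888 bases. Undivided, Mmp2 had more reads over all libraries (68803 against 67183). Its medians in control ASC2 were also higher, at 1770 CPM in males and 1940 CPM in females, against 775 and 1140 CPM for Timp1. Per kilobase of exon (Gencode vM21 gene models), the median over control libraries was 1510 CPM for Timp1, followed by the stromelysin Mmp3 at 777 and the gelatinase Mmp2 at 540. The order of Mmp3 and Mmp2 held in control ASC1 and was the reverse in control ASC2, where Mmp2 had 575 CPM per kilobase in males and 631 in females and Mmp3 had 568 and 446. Mmp19 followed at 146, Timp2 at 73.6, the membrane-bound collagenase Mmp14 at 57.1 and Mmp23 at 56.5. Mmp14 and Mmp23 were close together on this scale. Adamts2, the procollagen N-proteinase, was the ADAMTS gene with the highest level per kilobase (30.5 CPM), close to Timp3, and Adamts1 (20.5) and the aggrecanase Adamts5 (11.9) followed. The lowest tested members were Mmp15, Adamts8 and Adamts16, at 0.237 to 0.355 CPM per kilobase. The untested members had few reads over all 58 libraries: 50 for Adamts3, 27 for Timp4, 24 for Mmp1b, 18 each for Mmp7 and Mmp24, 17 for Mmp1a and 14 for Mmp25. Adamts20 had 8 reads, Mmp28 had 7, Mmp16 and Adamts19 had 6 each, Adamts17 had 4, Adamts13 had 3 and Adamts18 had 1. Mmp1a and Mmp1b lie in the same run on chromosome 9 with Mmp3 between them, and whether reads were divided between them was not tested.

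**Figure D1:**
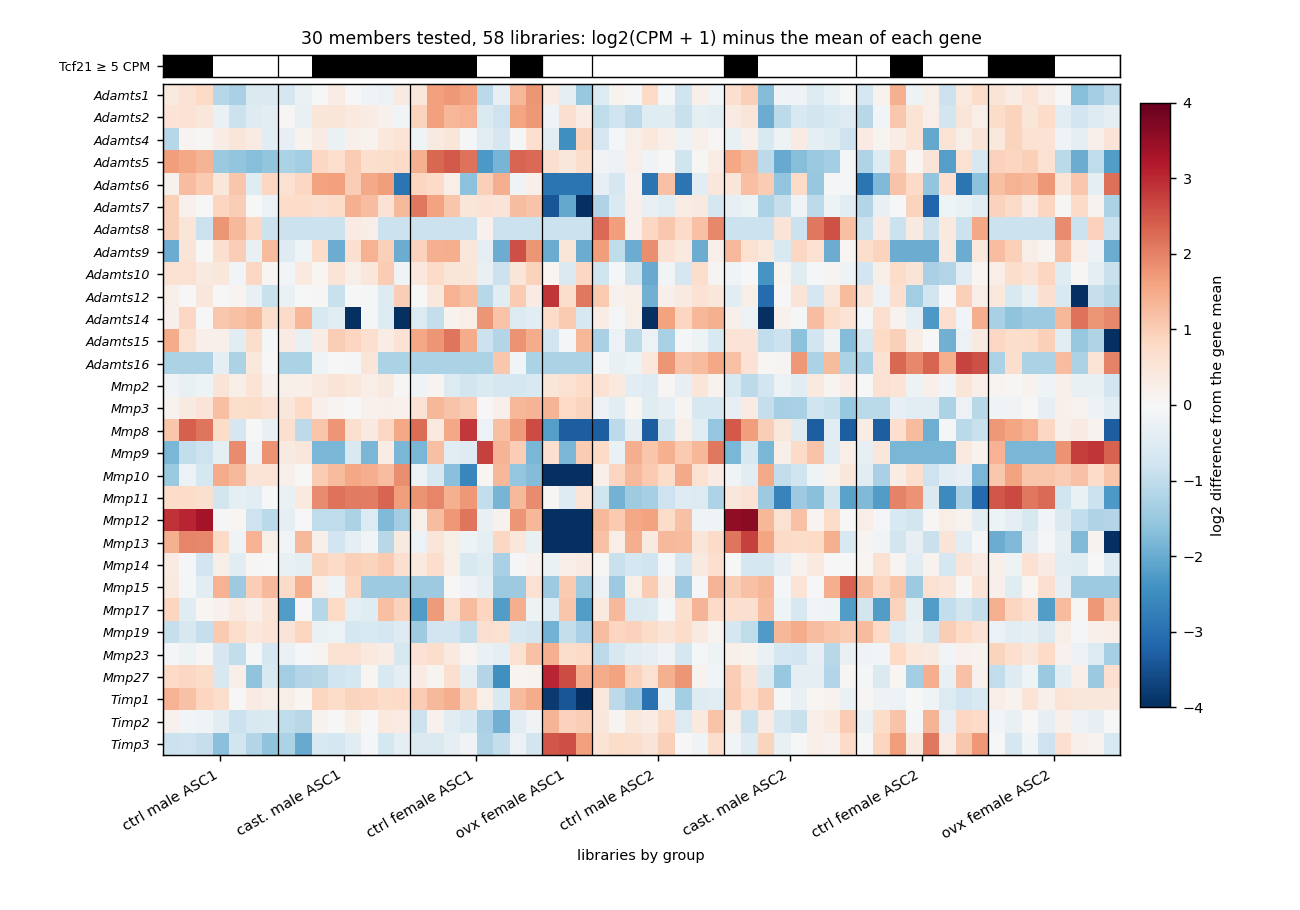
Levels of the 30 tested members (rows) in the 58 libraries (columns, by group), as log2(CPM + 1) minus the mean of each gene over all libraries. Black marks in the upper strip are the 23 libraries with at least 5 CPM of Tcf21. The 3 ovariectomized ASC1 libraries stand out by low Timp1, Mmp10, Mmp12, Mmp13 and Adamts7 and high Timp3 and Mmp27.

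ASC2 and ASC1 of control mice differed in 13 of 30 tested members by edgeR's quasi-likelihood test (adjusted p below 0.05 over all 12464 genes tested), against 17.9% of all genes. Of these, 3 were higher in ASC2, against 9.14% of all genes, and 10 were lower, against 8.81%. The median log2 fold change was -0.38 over the members and 0.00016 over all genes. Timp2 and Timp3 were higher in ASC2, whereas Timp1, Mmp3 and Mmp8 were lower. Mmp12 and several ADAMTS genes were also lower. On the libraries without Tcf21, Timp2, Timp3, Mmp3 and Adamts7 kept their call, and the other 9 did not, Adamts5 being called in the opposite direction.

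Timp3 separated the populations in both sexes. In males it lay between 48.6 and 93.4 CPM (median 82.3) in ASC1 and between 141 and 303 CPM (median 243) in ASC2. In females it lay between 66.1 and 142 CPM (median 105) in ASC1 and between 157 and 675 CPM (median 309) in ASC2. No ASC1 library of a control reached an ASC2 library of the same sex, and the log2 fold change was 1.70 ± 0.18 (SE, edgeR adjusted p = 1.10e-10). Without the libraries with Tcf21 it was 2.08.

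Timp2, which besides inhibiting MMPs takes part in activating pro-MMP2 at the cell surface, went the same way with more overlap. Its median was 219 CPM in male ASC1 and 392 CPM in male ASC2, and 204 and 497 CPM in females, with a log2 fold change of 1.00 ± 0.18 (edgeR adjusted p = 3.87e-05). The ranges of the populations overlapped in both sexes (164 to 335 against 203 to 653 CPM in males, 77.8 to 334 against 238 to 760 CPM in females).

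Timp1 went the other way. It had a median of 2160 CPM (range 1340 to 3500) in male ASC1 and of 775 CPM (166 to 1760) in male ASC2. In females the medians were 2920 CPM (864 to 3670) and 1140 CPM (775 to 1370). The log2 fold change was -1.36 ± 0.19 (edgeR adjusted p = 1.46e-07), and -0.62 on the libraries without Tcf21, where it was not called. In control female ASC1 the 6 libraries with Tcf21 held 2430 to 3670 CPM and the other 2 held 864 and 1550 CPM.

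Mmp3, a stromelysin that cleaves proteoglycans and activates other pro-MMPs, was lower in ASC2 in every group of mice. In males it lay between 1450 and 3050 CPM in ASC1 and between 846 and 1420 CPM in ASC2. In females it lay between 1320 and 3400 CPM in ASC1 and between 547 and 1120 CPM in ASC2, again without overlap. The log2 fold change in controls was -1.29 ± 0.15 (edgeR adjusted p = 5.18e-10). It was -1.01 in castrated males, where 7 of 30 members were called against 9.09% of all genes, and -1.14 in ovariectomized females, where 13 were called against 35.4%. Within control males alone 6 members were called (12.2% of all genes) and within control females 11 (6.11%). Of the 30 members, Mmp3 was the one called in the same direction in all 4 groups of mice, and Timp3 was called higher in ASC2 in 3 of them and lower in ovariectomized females.

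The collagenase Mmp8 was rare, with medians of 15.6 and 4.38 CPM in ASC1 and ASC2 of males and 29.7 and 6.37 CPM in females (log2 fold change -2.17 ± 0.41, edgeR adjusted p = 7.04e-05). Adamts7, which cleaves cartilage oligomeric matrix protein, had medians of 24.9 and 17 CPM in males and 48.9 and 18.0 CPM in females (-1.05 ± 0.21, adjusted p = 1.31e-04). Adamts16 was near the detection limit in ASC1, with a median of 0 in both sexes, and had medians of 3.22 CPM in male and 9.44 CPM in female ASC2 (2.83 ± 0.56, adjusted p = 1.68e-04). Groups overlapped for all 3 genes. Without the libraries that held Tcf21, Mmp8 (-1.32, adjusted p = 0.170) and Adamts16 (1.88, adjusted p = 0.164) were not called.

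Adamts5 was called in opposite directions with and without the libraries that held Tcf21. Over all control libraries it was lower in ASC2 (log2 fold change -1.19 ± 0.38, edgeR adjusted p = 0.022), but on the libraries without Tcf21 it was higher (1.70, adjusted p = 2.89e-04). Adamts2 moved from -0.81 ± 0.21 (adjusted p = 0.00462) to 0.26, Adamts15 from -1.15 ± 0.28 (adjusted p = 0.00169) to 0.11 and Mmp12 from -1.21 ± 0.33 (adjusted p = 0.00674) to 0.76, none of them called there. Mmp11 (-1.15, and -0.53 on these libraries) and Adamts10 (-0.59 and -0.27) kept their direction and lost the call. On these libraries 6 of 29 tested members were called, against 6.39% of all genes, namely Timp2, Timp3, Adamts5 and Mmp27 higher and Mmp3 and Adamts7 lower in ASC2. The libraries whose sex transcripts matched the label gave 2 calls among 28 tested members, Timp2 (1.29) and Timp3 (1.89), against 3.66% of all genes.

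**Figure D2:**
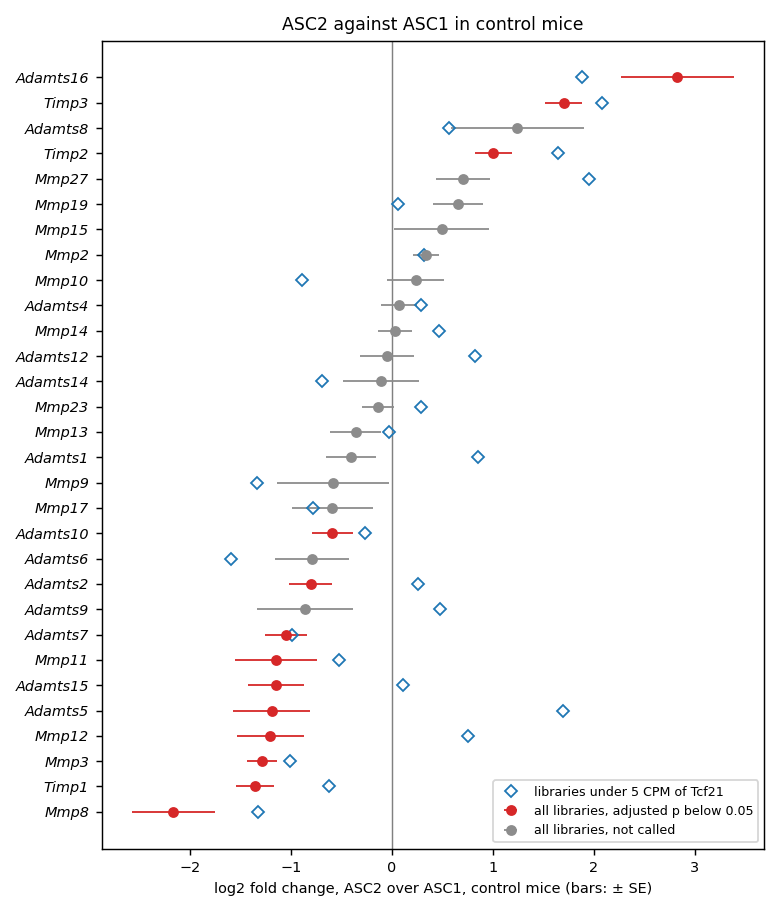
Log2 fold change of ASC2 over ASC1 in control mice for the 30 tested members, with bars for ± SE over all libraries (red, called; grey, not called). Blue diamonds are the same contrast on libraries under 5 CPM of Tcf21, where Timp3 (2.08), Timp2 and Mmp3 stay on their side and Adamts5 crosses from -1.19 to 1.70.

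The populations also differed in other gene lists. The summed level of immediate early genes (7 genes, among them Fos and Jun, which tissue dissociation can induce) was 172 to 610 CPM in male ASC1 and 805 to 1870 CPM in male ASC2, and 164 to 366 against 446 to 3320 CPM in females. Of 31 tested genes of activators, other metzincins, inhibitors and substrates, 7 were higher and 8 lower in ASC2, where 9.14% and 8.81% of all genes were. The ADAMTS-like glycoprotein gene Adamtsl4 (log2 fold change 3.02), the plasminogen activator Plat (0.60) and the procollagen enhancer Pcolce2 (1.15) were higher. The proprotein convertase Furin (-0.53), which activates membrane MMPs, was lower. The part of the immediate early genes in the values of the members was not tested.

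The libraries with Tcf21 differed from the others of their own group in several members, given here as a description without a test because the split was found in the data. In 6 groups both kinds of library were present. Among controls the same split also separated sex transcripts, so that the splits cannot be told apart there. The Xist share was 0% with Tcf21 and 80.6 to 94.3% without in male ASC1, and 2.94 to 66.7% against 100% in female ASC1. In female ASC2 it was 100% against 11.8 to 70.5%. Each castrated or ovariectomized group with both kinds carried transcripts mainly of a single sex. For Mmp11 no library with Tcf21 overlapped with one without in any of the 6 groups, and for Adamts5, Adamts2 and Adamts1 in 5 of 6, in each case with the higher values where Tcf21 was present. These 4 of 30 members compare with 2.39% of all tested genes that did not overlap in one direction in at least 5 groups. Adamts5 and Adamts1 are neighbours on chromosome 16.

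Adamts5, which cleaves aggrecan and versican, lay between 320 and 403 CPM in the 3 control male ASC1 libraries with Tcf21 and between 37.6 and 44.3 CPM in the 4 without. In control female ASC1 it lay between 339 and 692 CPM in 6 libraries and at 24.5 and 33.9 CPM in the other 2. In castrated ASC2 it was 311 and 365 CPM in libraries I and J and 30.2 to 119 CPM in the other 6. The levels thus formed separate clusters within groups that share a label. In the ovariectomized ASC1 libraries, without Tcf21, it was 173 to 203 CPM.

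Mmp11, a stromal MMP that acts on few matrix proteins, lay between 201 and 292 CPM in the 4 ovariectomized ASC2 libraries with Tcf21 and between 8.52 and 38.3 CPM in the 4 without. Mmp19 was the reverse. It lay between 185 and 226 CPM in control male ASC1 with Tcf21 and between 475 and 726 CPM without, and was lower without overlap in 4 of 6 groups, as was Mmp9. Mmp8, Mmp23 and Mmp27 were higher without overlap in 4 of 6 groups. With the 4 named before, 9 of 30 members reached at least 4 groups in one direction, against 5.55% of all genes. Mmp9 levels were low throughout, with a highest value of 24.6 CPM, in an ovariectomized ASC2 library without Tcf21.

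**Figure D3:**
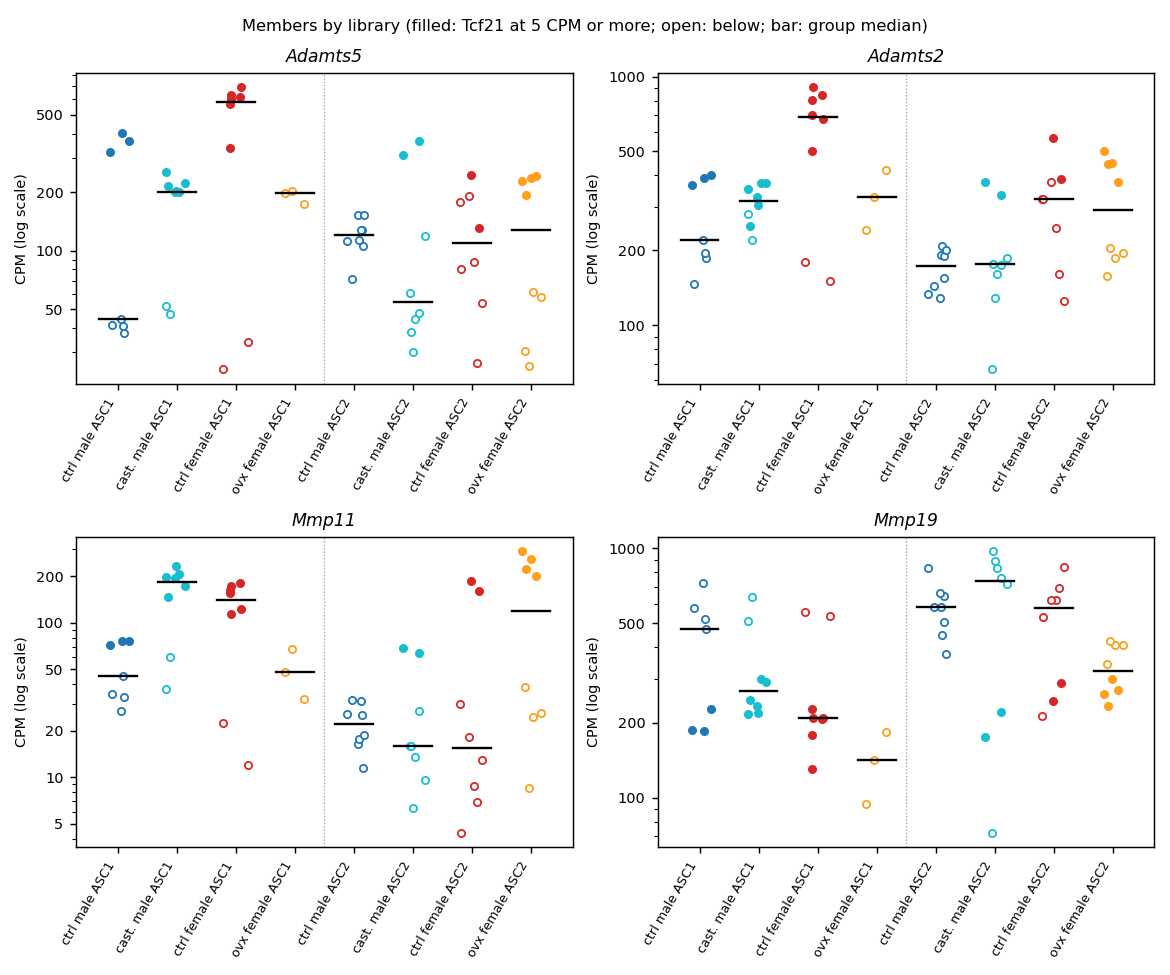
Adamts5, Adamts2, Mmp11 and Mmp19 in CPM (log scale) in each library of the 8 groups, with ASC1 left and ASC2 right of the dotted line and the group median as a bar. Filled points, libraries with at least 5 CPM of Tcf21, lie above open points of the same group for Mmp11 in all 6 groups that hold both and mostly below them for Mmp19.

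Castration was compared within each population. In ASC2, 3 of 30 members were called, against 6.96% of all genes: Timp1 and Mmp8 were higher and Mmp27 lower in castrated than in control males. The median log2 fold change was -0.013 over the members and 0.00443 over all genes.

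Timp1 had a median of 775 CPM (range 166 to 1760) in control and of 1410 CPM (1070 to 2680) in castrated male ASC2. The ranges overlapped, and the log2 fold change was 1.06 ± 0.26 (edgeR adjusted p = 0.00756). It was 1.19 (adjusted p = 0.0426) on the libraries whose sex transcripts matched the label and 0.88 (adjusted p = 0.0612) on those without Tcf21. In ASC1 the corresponding log2 fold change was -0.07. All 8 castrated ASC2 libraries matched their label.

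Mmp27, an MMP of the chromosome 9 run with poorly known substrates, had a median of 37.1 CPM (14.2 to 54.9) in control and of 12 CPM (4.77 to 31.6) in castrated ASC2. The log2 fold change was -1.24 ± 0.36 (edgeR adjusted p = 0.0257), and -1.80 (adjusted p = 0.00461) on the libraries without Tcf21. Mmp8 had medians of 4.38 CPM (0 to 10.6) and 9.54 CPM (0 to 53.5), with a log2 fold change of 1.96 ± 0.61 (adjusted p = 0.0372) that fell to 0.84 (adjusted p = 0.482) without them. Macrophage markers moved with these values. The summed level of Ptprc, Adgre1, Cd68, Lyz2 and Csf1r (5 of 5 detected) was 703 to 1970 CPM in control and 1340 to 6460 CPM in castrated ASC2. That of 5 endothelial markers was 12.7 to 42.9 CPM in control and 43.0 to 87.4 CPM in castrated ASC2, without overlap. Their part in the results was not tested.

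In ASC1, whose castrated libraries all carried female sex transcripts, Mmp12 was the single member called (against 2.36% of all genes), with lower levels in castrated males. Mmp12, the macrophage elastase, lay between 65.1 and 1390 CPM (median 145) in control male ASC1 and between 39.7 and 139 CPM (median 67.2) in castrated ASC1. The log2 fold change was -2.84 ± 0.50 (edgeR adjusted p = 2.54e-04). It rested on control libraries B, C and D, which had 1030 to 1390 CPM, whereas the other 4 had 65.1 to 145 CPM and overlapped with the castrated libraries. B, C and D were also the 3 controls whose sex transcripts matched the label. The other 4 had an Xist share of 80.6 to 94.3%, and the castrated libraries one of 94.2 to 100%. The libraries without Tcf21 leave out these 3, and so every control that matched its label. There the log2 fold change was 0.22, and no gene at all was called. Mmp13 was not called in this comparison (-1.18, adjusted p = 0.0586).

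The castration effect differed between ASC2 and ASC1 for Mmp12 (log2 difference 3.92 ± 0.68, edgeR adjusted p = 2.71e-04) and for the collagenase Mmp13 (1.76 ± 0.48, adjusted p = 0.0291), against 2.41% of all genes. Castrated ASC2 libraries I and J held 1630 and 1680 CPM of Mmp12, and the other 6 between 138 and 348 CPM. Mmp13 lay between 72.0 and 108 CPM in I and J and between 9.65 and 47.6 CPM in the other 6. On the libraries without Tcf21, which leave out I and J as well, the differences were -0.48 for Mmp12 and -0.12 for Mmp13. They were not called, and neither was any other gene.

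The libraries with most Mmp12 were those with most macrophage transcripts. Lyz2, the lysozyme of macrophages, lay between 4690 and 5640 CPM in control male ASC1 libraries B, C and D and between 476 and 555 CPM in the other 4. It was 5050 and 5780 CPM in castrated ASC2 libraries I and J and 1150 to 1940 CPM in the other 6. Cd68 lay between 366 and 460 CPM in B, C and D and between 35.4 and 72.1 CPM in the other 4, although the sort excluded CD45+ cells. In ovariectomized ASC1, where Mmp12 had 1 read in all, Cd68 was at most 2.27 CPM and Adgre1 was at 0. The part of macrophage RNA in the Mmp12 and Mmp13 results was not tested.

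**Figure D4:**
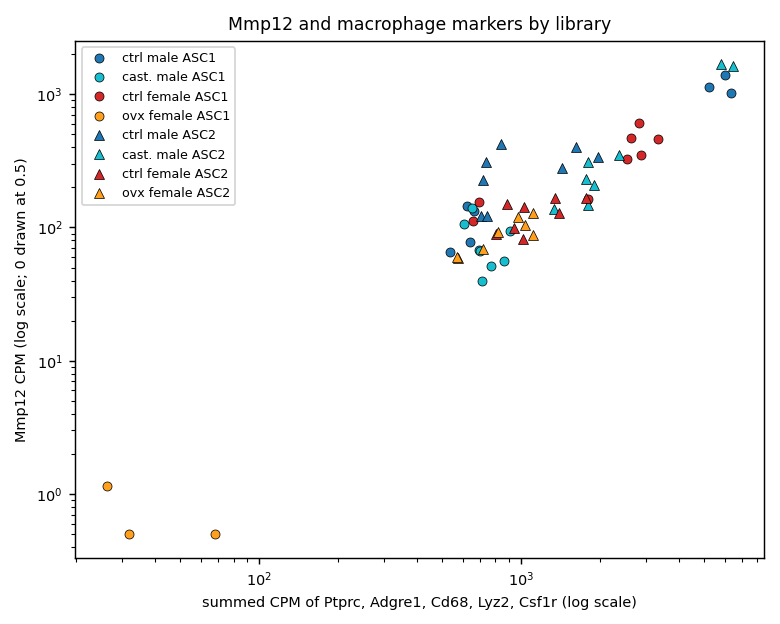
Mmp12 in CPM (log scale, libraries without a read drawn at 0.5) against the summed CPM of the 5 macrophage markers (log scale) in each of the 58 libraries, with circles for ASC1 and triangles for ASC2. Control male ASC1 libraries B, C and D and castrated ASC2 libraries I and J lie at the upper right, with over 1000 CPM of Mmp12, and the 3 ovariectomized ASC1 libraries at the lower left.

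Ovariectomized and control female ASC2 differed in 2 of 30 members, against 2.09% of all genes, with Timp3 lower and Mmp10 higher in the ovariectomized libraries. As 2 of 8 control libraries matched the sex on their label, the comparison is of labels. The median log2 fold change was 0.10 over the members and 0.00189 over all genes. Timp3 had a median of 309 CPM (157 to 675) in control and of 150 CPM (88.5 to 252) in ovariectomized female ASC2 (log2 fold change -1.26 ± 0.25, edgeR adjusted p = 0.00165). The ranges overlapped. With a term for Tcf21 it was -1.27, and on the libraries without Tcf21 it was -0.99 and not called (adjusted p = 0.179).

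Mmp10, a second stromelysin, lay between 5.84 and 37.8 CPM (median 16.7) in control and between 39.4 and 72.6 CPM (median 51.0) in ovariectomized ASC2. The groups did not overlap, and the log2 fold change was 1.51 ± 0.38 (edgeR adjusted p = 0.0201). On the libraries without Tcf21 it was 1.86 (adjusted p = 0.0135). Against the 2 control libraries with matching sex transcripts alone, Mmp10 had a log2 fold change of 0.70 (adjusted p = 0.972) and Timp3 of -1.21 (adjusted p = 0.370), and neither was called. In that setting 0.0253% of all genes were called. The 2 controls, C and D, held 28.4 and 37.8 CPM of Mmp10, and the other control libraries 5.84 to 18.2 CPM. C and D are also the 2 control female ASC2 libraries with Tcf21. Timp1 did not overlap either (775 to 1370 against 1450 to 1950 CPM), but was not called. The summed level of mammary epithelium markers, Epcam and 4 keratins, was 6.33 to 42.6 CPM in control and 9.83 to 1070 CPM in ovariectomized ASC2, and that of mural cell markers 154 to 1400 and 830 to 2020 CPM. The ASC2 markers went from 1270 to 5910 CPM in control to 506 to 2950 CPM in ovariectomized ASC2 (2 of 4 called lower, median log2 fold change -1.26). The ASC or fibroblast markers went from 5810 to 19300 to 5320 to 10300 CPM (4 of 6 called lower), and the immediate early genes from 446 to 3320 to 190 to 1060 CPM (4 of 7 called lower). Timp3, lower here, was itself higher in ASC2 than in ASC1 of controls. The part of these lists in the values was not tested.

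The contrasts of castrated and of ovariectomized ASC2 with their controls, which share no library, differed for Mmp10 (log2 difference -2.26 ± 0.54, edgeR adjusted p = 0.0246). Mmp10 was the single member called, against 0.602% of all genes. Its median was 41.3 CPM (27.1 to 67.6) in control male and 20.6 CPM (11.1 to 67.8) in castrated male ASC2, a log2 fold change of -0.76 that was not called. Library K of the castrated group held 67.8 CPM and the other 7 at most 32.2 CPM.

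Control males and females differed in 2 members in ASC2, against 6.5% of all genes. Mmp10 was higher in males (log2 fold change 1.23 ± 0.38, edgeR adjusted p = 0.0382), and so was Mmp13, with 18.3 to 43.7 CPM (median 31.6) against 7.88 to 22.3 CPM (median 13.0) in females (1.20 ± 0.35, adjusted p = 0.0278). The ranges overlapped for both genes, and Mmp13 was not called without the Tcf21 libraries (1.07, adjusted p = 0.0690). In ASC1 no member was called by edgeR, against 0.289% of all genes, and DESeq2 called 1, against 0.433%. As 11 of 31 control libraries matched the sex on their label, these 2 comparisons are of labels.

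Ovariectomized ASC1 differed most from its control, with 13 of 30 members called against 34.8% of all genes. In this comparison 5 members were higher, against 12.7% of all genes, and 8 lower, against 22.1%. The median log2 fold change was -0.34 over all genes and -1.04 over the members, or -0.94 with the 3 members without reads at their bound and another 2 without reads left out. The group held 3 libraries, L, N and P, with total counts between 188599 and 1114334. The paper had 8 ovariectomized females, and 3 ASC1 libraries passed its filter on detected genes. Between 9122 and 11634 genes had a read in these 3, against 10502 to 14395 in control female ASC1. Their ASC2 markers summed to 240 to 415 CPM, above control female ASC1 (27.9 to 147 CPM) and below control female ASC2, and their ASC1 markers (Col15a1, G0s2, Cxcl14, Clec11a and Fmo2) to 969 to 1620 CPM against 265 to 611 CPM. With libraries without Tcf21 alone, which leave controls E and F, 17 of 29 tested members were called, against 28.9% of all genes.

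Timp1 fell to 92.1, 123 and 43.1 CPM in these 3 libraries, from 864 to 3670 CPM (median 2920) in control female ASC1. The groups did not overlap, and the log2 fold change was -4.91 ± 0.50 (edgeR adjusted p = 9.18e-12). Every other library of the experiment held at least 166 CPM. On the libraries without Tcf21 the log2 fold change was -3.76, and against the 2 controls with matching sex transcripts -3.77. Both settings leave the same 2 controls, E and F, so that these values are not separate checks.

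Timp3 and Timp2 rose, and Timp4 was too rare to test. Timp3 was 884, 940 and 493 CPM, against 66.1 to 142 CPM (median 105) in controls (2.87 ± 0.31, edgeR adjusted p = 6.45e-11). Timp2 was 766, 557 and 592 CPM, against 77.8 to 334 CPM (median 204, 1.69 ± 0.32, adjusted p = 4.00e-05). All 3 libraries lay above all 8 controls for both genes. Within ovariectomized females the log2 fold change of ASC2 over ASC1, which uses the same 3 libraries, was 4.29 for Timp1, -2.37 for Timp3 and -1.25 for Timp2.

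**Figure D5:**
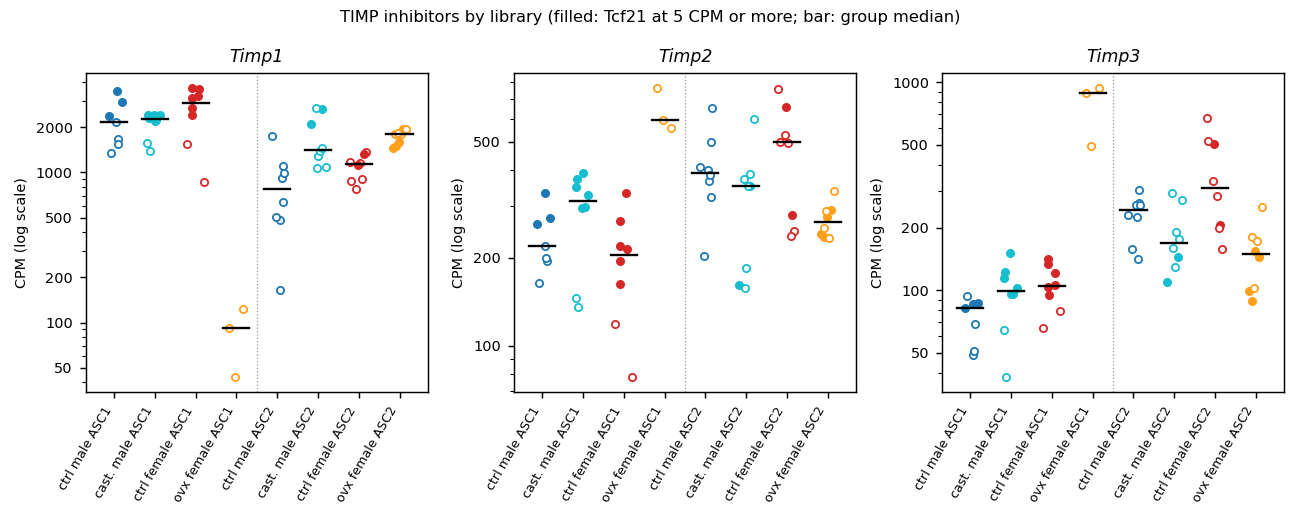
Timp1, Timp2 and Timp3 in CPM (log scale) in each library of the 8 groups, with the group median as a bar, filled points for libraries with at least 5 CPM of Tcf21 and ASC1 left of the dotted line. In ovariectomized ASC1 Timp1 lies between 43.1 and 123 CPM, below all other libraries, and Timp3 between 493 and 940 CPM.

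The genes of the chromosome 9 run, whose upstream sequences are given above, went in opposite directions in these libraries. Mmp10 and Mmp13 had no read in any of the 3, and means of 17.7 and 17.5 CPM in controls. Against a floor of 3 counts over the group (2.38 CPM) they were at least 7.42-fold and 7.35-fold lower (edgeR adjusted p = 0.00167 and 2.26e-04), and the floor covers counting error only. Without library L the floor was 7.87 CPM and these bounds were 2.25-fold and 2.22-fold, and without control library F that of Mmp10 was 4.89-fold. Mmp12 had 1 read and was 436-fold lower (95% counting interval 78.1 to 17200), and Mmp8 had 1 read and was 41.8-fold lower (7.39 to 1660). Their adjusted p values were 4.85e-06 and 0.00303. In contrast, Mmp27 was 135, 100 and 43.1 CPM against 1.99 to 24.9 CPM (median 16.8) in controls (2.79 ± 0.45, adjusted p = 2.05e-06). Mmp3 was 3380, 2300 and 2450 CPM against 1320 to 3400 CPM, within the range of the controls. Mmp3, Mmp10, Mmp12 and Mmp13 all carry the AP-1 string within 63 bases of the start. Mmp8, nearly absent like Mmp12, and Mmp27 carry none in the 250 bases searched. Fos itself lay between 1900 and 2190 CPM in the 3 libraries and between 64.7 and 212 CPM in control female ASC1. Whether the string or the Fos level bears on the levels of these genes was not tested.

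The gelatinase Mmp2 was 2300, 2500 and 2740 CPM, above all 8 controls (986 to 1790 CPM, 1.06 ± 0.23, edgeR adjusted p = 2.45e-04). Adamts12 was 146, 32 and 86.3 CPM against 8.52 to 53.1 CPM (median 25.6), with overlap (1.64 ± 0.45, adjusted p = 0.00341). Without library L its log2 fold change was 0.92 and not called (adjusted p = 0.296). Adamts6 had no read, at least 4.33-fold lower than the control mean of 10.3 CPM (adjusted p = 0.00864) or 1.31-fold without library L, and Adamts7 had 2 reads, 28.7-fold lower (95% counting interval 7.85 to 238, adjusted p = 4.94e-07). Without library L, the deepest of the 3, the adjusted p of Adamts6 was 0.137 and that of Mmp10 0.0719. Adamts1 was 111, 68.5 and 30.8 CPM against 41.6 to 310 CPM (median 253, -1.42 ± 0.52, adjusted p = 0.0273), but on the libraries without Tcf21 the log2 fold change was 0.49. Its adjusted p was 0.0713 without library N and 0.135 without library P.

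Other lists moved in the same libraries. The ASC or fibroblast markers Pdgfra, Dcn, Lum, Col1a1, Cd34 and Ly6a (6 of 6 detected) summed to 47500 to 49300 CPM in ovariectomized ASC1 and 5730 to 10600 CPM in its control, and the immediate early genes to 2680 to 3750 and 164 to 366 CPM. The macrophage markers summed to 26.2 to 67.8 and 655 to 3330 CPM, with Adgre1 at 0, and all 5 mammary epithelium markers were at 0 against 39.1 to 741 CPM. Their part in the results was not tested. Of the 31 tested genes of activators, other metzincins, inhibitors and substrates 11 rose and 11 fell, where 12.7% of all genes rose and 22.1% fell. The collagen-degrading cathepsin Ctsk (2.86) and the collagens Col3a1 (2.39) and Col1a2 (1.75) rose, while fibronectin, Fn1 (-3.11), fell. In ASC2, Plat was lower after castration (-0.76), and Fap (-1.06), Ctsk (-0.65), Adamtsl1 (-1.09) and Col3a1 (-0.85) were lower after ovariectomy. In castrated ASC1 the urokinase receptor Plaur was the single gene of the list called (-1.14), and its castration effect differed between the populations (1.88). Between control males and females, Plat was higher in male ASC2 (0.60) and Fap (-1.03) and Col1a1 (-0.79) were lower.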

How the data were processed

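The authors trimmed adapters with NGmerge, quantified reads with Salmon 1.9.0 on Gencode vM32 transcripts of GRCm39 (STAR 2.7.10a, FastQC 0.11.9 and MultiQC 1.12 are also in the submitters' processing notes), and removed libraries with few detected genes. They deposited estimated counts per gene without normalization, in which reads with and without UMIs were added together, and 15% of the counts above 0 were not whole. These estimated counts were rounded and tested with edgeR 4.0.16 in R 4.3.3 (TMM, estimateDisp, glmQLFit, glmQLFTest; Benjamini-Hochberg over the 12464 genes that reached 5 reads in over 3 of the 58 libraries; call at adjusted p below 0.05). All 8 groups shared one fit, without a block, and the common biological coefficient of variation was 35.6%. CPM are on TMM-scaled library sizes. Symbols were matched by identifier for 52029 of 56953 genes. Levels per kilobase use exon lengths of an older annotation, Gencode vM21.

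The members and gene lists were chosen with earlier results of these data known. Values are given for members called in at least 1 comparison and for the TIMPs, and Mmp9, Mmp19 and Fos were added after their values had been seen. Counting intervals are exact (95%) and, like the floor of 3 counts, cover counting error only. Alternatives were DESeq2 1.42.0, limma 3.58.1 voom, RLE factors, library size only, other filters, a 2-fold minimum, one population or both pooled, libraries matching their label (Xist share at least 80% or at most 20%), blocks and single libraries left out. The alternatives on Tcf21 (5 CPM) were chosen after seeing the data. The test was checked on simulated data, and replicate libraries were checked for copies. Promoter sequences are RefSeq entries of GRCm38.p6, searched by exact match. A gene of the list of activators, inhibitors and substrates is not reported here.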

Additional observations from a re-analysis of the deposited data

Results flagged for a closer look

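A library far from the others of its group, by the gap to its nearest neighbour relative to the range (Dixon's criterion), was found in 8 of 140 groups of values over 20 members, where chance gives about 1 in 20. Adamts10 was 99.3 CPM in castrated ASC1 library O (the others 43.7 to 69.9 CPM) and 8.66 CPM in castrated ASC2 library K (34.0 to 52.5 CPM). Library K also had 67.8 CPM of Mmp10 (11.1 to 32.2 CPM). Mmp10 was 59.8 CPM in control female ASC1 library F (2.95 to 24.5 CPM) and 72.6 CPM in ovariectomized ASC2 library J (39.4 to 53.6 CPM). Adamts12 was 39.7 CPM in castrated ASC1 library P (9.98 to 20.2 CPM), Adamts16 was 3.99 CPM in control female ASC1 library F (0 to 1.2 CPM), and Mmp13 was 39.4 CPM in castrated ASC1 library J (6.62 to 19.9 CPM).

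Effects differed between groups by edgeR's test of the difference for 3 members. The castration effect was higher in ASC2 than in ASC1 for Mmp12 (log2 difference 3.92) and Mmp13 (1.76), and the effect of castration minus that of ovariectomy in ASC2 was -2.26 for Mmp10.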

How the results depend on the processing

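Counts of called members moved by over 1.5 times as follows, and the cause was not tested. Percentages are the share of all genes called in the same setting. On libraries matching their label (28 members tested), ASC2 against ASC1 in controls gave 2 calls instead of 13 (3.66%) and ovariectomy in ASC2 0 instead of 2 (0.0253%). Males against females in ASC1 gave 2 instead of 0 (1.23%), and castration against ovariectomy 0 instead of 1 (0%). On libraries without Tcf21, chosen after seeing the data (29 members tested), they were 6 for ASC2 against ASC1 (6.39%) and 3 for castration against ovariectomy (0.693%). They were 0 for castration in ASC1 instead of 1 and for its difference between populations instead of 2. In both of these no gene of 11691 was called, and of castrated ASC1 only libraries I and J remained. With a Tcf21 term, also chosen after seeing the data, they were 2 for castration in ASC1 (2.78%) and 4 for ovariectomy in ASC2 (2.78%). The difference between populations (3.81%) and castration against ovariectomy (1.65%) gave 4 each. Without a count filter 44 members were tested. Calls were 3 for castration in ASC1 (1.36%), 4 for ovariectomy in ASC2 (1.24%), and 5 (ASC2, 2.8%) and 2 (ASC1, 0.271%) for sex. They were 4 for the difference between populations (1.52%) and 3 for castration against ovariectomy (0.931%). With filterByExpr sex in ASC2 gave 4 of 25 members (8.26%). DESeq2 gave 4 for sex in ASC2 (7.96%), 1 in ASC1 (0.433%), and 2 for castration against ovariectomy (1.42%). Fits of 1 population gave 3 for castration in ASC1 (3.47%) and 1 for sex in ASC1 (0.588%), of 27 members tested. Pooled populations gave 0 for castration (2.49%) and 0 for ovariectomy (0.281%), set against the calls in ASC2. Leaving out 1 ovariectomized ASC1 library gave 10 to 13 (18.7% to 33.6%).

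Directions reversed on label-matching libraries for Mmp11 (0.58), Adamts5 (0.54), Adamts15 (0.088) and Adamts2 (0.076) in ASC2 against ASC1 and for Adamts1 (0.48) in ovariectomized ASC1. Without Tcf21 libraries they reversed for Adamts5 (1.70), Adamts15 (0.11), Adamts2 (0.26) and Mmp12 (0.76) in ASC2 against ASC1, Mmp12 (0.22) in castrated ASC1, Adamts1 (0.49) in ovariectomized ASC1, and Mmp12 (-0.48) and Mmp13 (-0.12) between populations. For Adamts1 both settings leave the same controls, E and F. Adamts5 (0.58) reversed with the Tcf21 term and Timp3 (0.44) in ovariectomized ASC2 with pooled populations. DESeq2, RLE factors, library size only and no filter kept all 37 single-gene results. Label-matching castration in ASC1 could not be fitted, as 0 of 8 castrated libraries matched.

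The letters were not taken as pairs, since in none of 7 pairs of groups were all same-letter correlations above 0.1. The correlations came closest in control ASC1 of males and females (5 of 7 above 0.1, median 0.155 against -0.0203 for other letters). Such pairs join different mice and cannot test pairing. In control males 2 of 7 were above 0.1 and all were positive (lowest 0.0527, median 0.0892 against -0.0157, own letter best in 5 of 7). Pairing is thus not excluded there. The estimated correlation within a presumed mouse was 0.0522. With the letter as a replicate block, sex in ASC1 gave 2 calls instead of 0, against 0.547% of all genes. With voom's replicate block castration against ovariectomy gave 2 instead of 1, against 0.465%. The block moved no other count by over 1.5 times. In ASC2 against ASC1, Adamts5 and Mmp12 were not called with the letter block (-0.88, adjusted p = 0.0753, and -0.90, adjusted p = 0.0511) or with voom's (-0.60 and -0.73). Voom's block also lost Mmp8 in castrated ASC2 (1.43) and Adamts1 in ovariectomized ASC1 (-1.07). Depth limits the members near 0 in the ovariectomized ASC1 libraries.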
